A study of Sorghum bicolor with 4 samples.

Results

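The last step of stem development measured in sweet sorghum, physiological maturity against the milky stage of the grain, was described in the middle internode across all rows of the expression table that reached 1 FPKM at maturity or at the milky stage. FPKM is a fragment count divided by transcript length and by library size. Of 34458 rows in the table, 18106 (52.5%) met that rule, 17461 of them at maturity and 17103 at the milky stage. The plants were of the sweet sorghum variety SSV84 (Sorghum bicolor) raised in an open field, with no treatment named in the labels. The samples described here are 1 at maturity, 1 at the milky stage and 2 at booting, the earlier stage that is shown beside them. The table holds 1 value per stage made by the authors, and how many libraries entered each value is not known. No SD, n or p-value can therefore be given, and a difference between stages has no replicate check. Sequencing depth is unknown, because the table gives no counts.

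A sorghum stem internode consists of vascular bundles set in storage parenchyma under a hard rind. In sweet varieties the parenchyma stores sucrose in its vacuoles, mostly after the internode has stopped elongating, while the fibres and vessels lay down thickened, lignified walls. Between the milky stage and physiological maturity the grain passes from a fluid-filled kernel to its final dry weight, and the stem may act as both a source and a store of carbon. By its title the series belongs to work on R2R3 MYB factors, a plant family of transcription factors that includes regulators of wall and phenylpropanoid genes.

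Rows are named by gene ID. The files do not pair these IDs with gene names, and a search of RefSeq's gene table (assembly Sorghum_bicolor_NCBIv3) matched 0 of the 34129 IDs in their deposited form. No gene is therefore given a name or a role, the tissue label could not be set against marker genes, and rows are described by their level, their position in the table's own coordinates, the kind of row and their value at booting. In whole tissue, a lower value through fewer cells of a type and one through less RNA per cell cannot be told apart.

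Most of the transcriptome kept its level over this step. The difference in log2(FPKM + 1), maturity minus milky stage, had a median of 0.06 and lay between −0.22 and 0.36 for the middle 50% of rows. It was under 0.5 in size for 71.1% of rows. Rows are said here to have risen or fallen when this difference reached 1 in size. By that rule 1040 rows rose (5.74% of 18106) and 672 fell (3.71%), so that 9.46% changed in either direction. Because of the added 1, changes of weakly expressed rows are understated. Across rows, the 2 stages had a Pearson's r of 0.937 on the log2(FPKM + 1) scale, a description over rows that are not independent replicates.

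**Figure D1:**
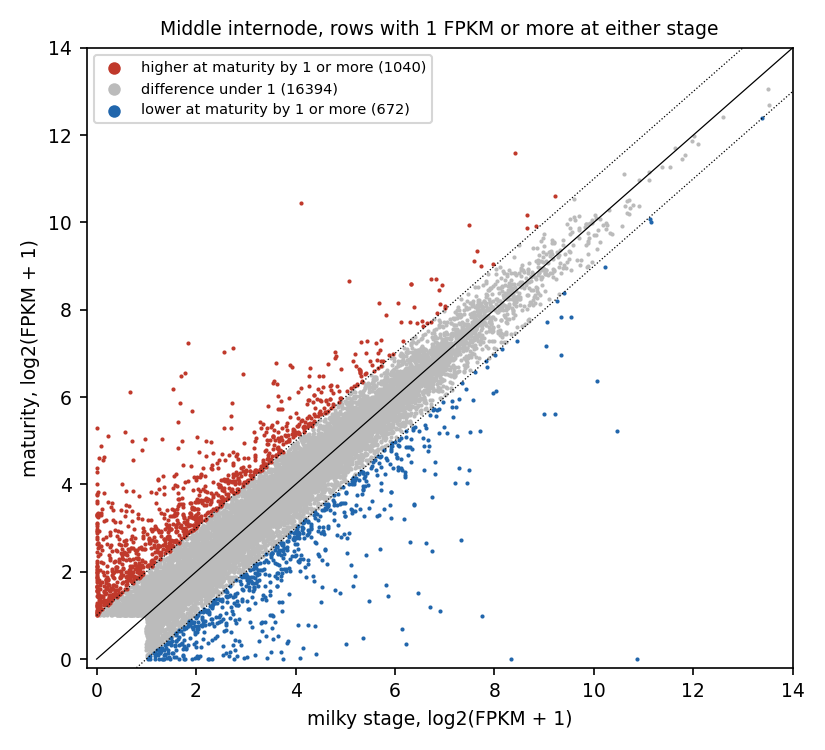
Each point is 1 of 18106 rows, with log2(FPKM + 1) at maturity on the vertical axis and at the milky stage on the horizontal axis; the solid line marks equal values and the dotted lines a difference of 1. The 1040 rows above the upper dotted line rose, the 672 below the lower one fell, and the highest rows lie mostly under the line of equal values.

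Rises outnumbered falls at a difference of at least 1, 2, 3 or 4 and not at 5, where few rows remained. At a difference of at least 2, 215 rows rose (1.19%) and 126 fell (0.696%), and at 3 the counts were 61 (0.337%) and 47 (0.26%). At a difference of at least 4, 21 rows rose (0.116%) and 18 fell (0.0994%), and at 5 the order turned, with 4 rises (0.0221%) and 8 falls (0.0442%). The 8 falls include both rows of a locus on chromosome 10 (52122843 to 52228422) that were listed at 0 at maturity, so they are not all separate loci. The threshold itself cut through a dense part of the distribution. The 5 rows just inside it on the rising side reached at most 1.002 and the 5 just outside it were no lower than 0.998, and 320 rows rose by 1 to 1.2 while 514 were higher by 0.8 to 1. On the falling side 237 rows lay between 1 and 1.2 in size and 374 between 0.8 and 1. The rule for entry also had rows on both sides. The 5 rows just inside it had at most 1.002 FPKM at their higher stage and the 5 just outside it at least 0.999, with 1874 rows at 1 to 2 FPKM inside and 1577 rows at 0.5 to 1 FPKM outside.

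The excess of rises also depended on how the stages were scaled. Rescaling both stages by the median of ratios, with a factor for maturity 1.05 times that for the milky stage, gave 942 rises and 756 falls. Quantile normalization gave 871 rises and 833 falls, so that 51.1% of changed rows rose, against 60.7% on the deposited scale. The total of changed rows hardly moved, at 1698 and 1704 against 1712.

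On the log2(FPKM + 1) scale, the single-gene row with the largest rise was Sobic.004G263100 on chromosome 4 (60812267 to 60813930). It stood at 0.268 FPKM at booting, 0.587 FPKM at the milky stage and 68.8 FPKM at maturity, and rose by 5.46 on the log2(FPKM + 1) scale over the last step. The nearest rows on either side did not follow it past the threshold. The row 4204 bp before it had 10.4 FPKM at maturity and 4.73 at the milky stage, a log2 difference of 0.99, and the rows 7176 bp after it differed by 0.16 and 0.08.

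The next largest rise on this scale was that of Sobic.002G109500 on chromosome 2 (13337492 to 13338174), which did not begin from a low point at booting. Its values were 59.1 FPKM at booting, 2.57 FPKM at the milky stage and 149 FPKM at maturity, a log2 difference of 5.40 over the last step. It was thus low only at the milky stage. The order of the rises depends on the added 1. With 5 added in its place, Sobic.002G109500 rose by 4.35 and Sobic.004G263100 by 3.72, and as a plain ratio of FPKM the rise of Sobic.004G263100 was 117-fold, below the 463-fold of a row on chromosome 1 (2072932 to 2074370) with 28.6 FPKM at maturity and 0.0618 FPKM at the milky stage. One neighbour of Sobic.002G109500 shared its direction, since the row 35996 bp before that gene had 30.7 FPKM at maturity and 2.28 at the milky stage, a log2 difference of 3.28. The rows on the other side, 12362 and 48817 bp away, differed by 0.35 and 0.05.

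The largest falls among single-gene rows above 0 in both stages lay between neighbours that kept their level. Sobic.001G519700 on chromosome 1 (78556200 to 78558856) had 69.7 FPKM at booting, 214 FPKM at the milky stage and 0.973 FPKM at maturity, a log2 difference of −6.77. The row 3398 bp after it had 52.2 FPKM at maturity and 63.0 at the milky stage, a log2 difference of −0.27. Sobic.002G072200 on chromosome 2 (7347191 to 7348612) had 27.9 FPKM at booting, 73.8 FPKM at the milky stage and 0.261 FPKM at maturity, a log2 difference of −5.89. The row that begins 529 bp after its end stood at 47.7 FPKM at maturity and 52.4 at the milky stage, a log2 difference of −0.13. In all, the 8 nearest rows listed for these 2 genes differed by between −0.45 and −0.04.

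The 12 largest rises and the 12 largest falls among single-gene rows above 0 in both stages were chosen by their difference from the milky stage to maturity, so their levels at these 2 stages describe the choice. The 12 rises had 22.5 to 149 FPKM at maturity (median 70.1) and 0.0618 to 5.73 FPKM at the milky stage (median 1.26). Of these 12, 8 had been under 1 FPKM at booting. The 12 falls had 0.0796 to 36.6 FPKM at maturity (median 1.32) and 20.4 to 1411 FPKM at the milky stage (median 65.3). None of the 12 was under 1 FPKM at booting, and 11 of the 12 had a booting value below the milky one. The booting value had no part in the choice, but rows chosen for a low or a high milky value may be low or high at booting too, and no test was made.

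**Figure D2:**
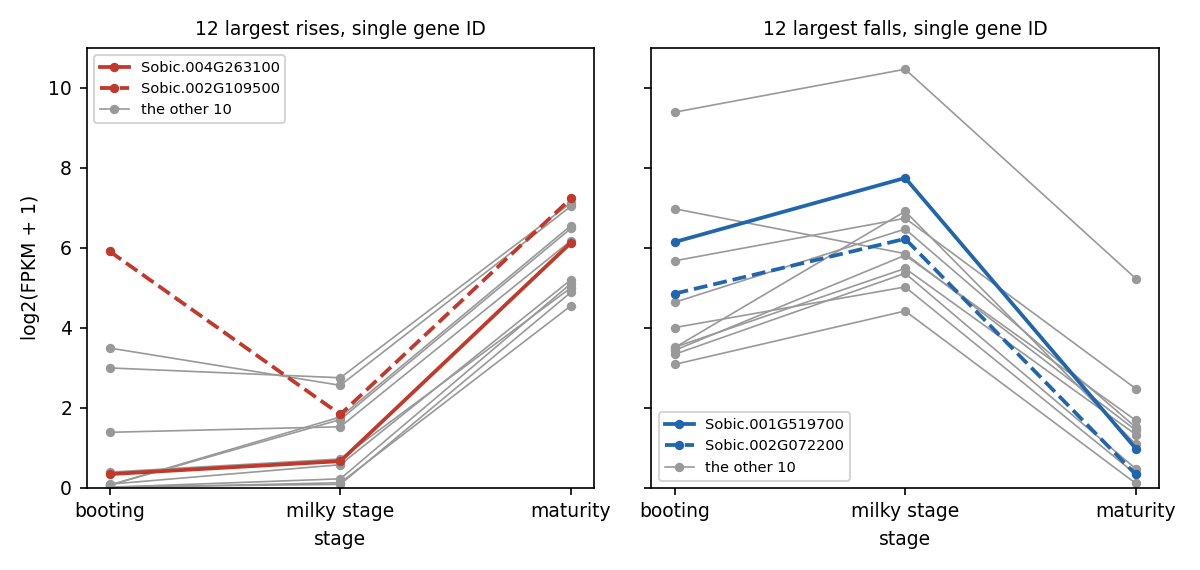
Lines join the authors' value at booting, the milky stage and maturity, as log2(FPKM + 1), for the 12 single-gene rows with the largest rise (left) and the 12 with the largest fall (right) from the milky stage to maturity. Of the rises, 8 of 12 began under 1 FPKM at booting, and of the falls, 11 of 12 were higher at the milky stage than at booting.

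Rows that were on in one stage and off in the other were few. At least 10 FPKM was taken as on and under 1 FPKM as off. Of the 18106 entered rows, 30 were on at maturity and off at the milky stage, and 23 were off at maturity and on at the milky stage. Of the 30, 24 were under 1 FPKM at booting too, 4 had 1 to 10 FPKM and 2 had at least 10. Of the 23, 3 were under 1 FPKM at booting, 13 had 1 to 10 and 7 had at least 10. Both sets were chosen by their milky value, so a low or a high booting value may follow from the choice, and no test was made. At 100 FPKM as the bound for on, no row was on at maturity alone and 3 were on at the milky stage alone, Sobic.001G519700 among them. The other 2, a row that merges 4 gene IDs and a row with no ID, share a locus of 105580 bp on chromosome 10 (52122843 to 52228422). They were listed at 0 at maturity against 1879 and 320 FPKM at the milky stage, and at 0 at booting.

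A level of 1 FPKM was reached by 16458 of the 18106 rows in both stages, by 1003 at maturity only and by 645 at the milky stage only. The 1003 and the 645 entered through that 1 stage alone. Under 1 FPKM does not mean absent, since 18038 of the entered rows were above 0 in both stages. Of the 18106 rows, 14 were listed at 0 at maturity, with a median of 1.98 FPKM at the milky stage, and 54 were listed at 0 at the milky stage, with a median of 3.15 FPKM at maturity. Of the 54, 42 were also listed at 0 at booting. The highest of them at maturity, with 38.5 FPKM, is a row of 103 bp on chromosome 6 (49034299 to 49034401).

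The rows that rose and the rows that fell carried different amounts of transcript. Rows that fell had a median of 3.06 FPKM at maturity and 12.1 FPKM at the milky stage, and rows that rose had a median of 8.97 FPKM at maturity and 2.12 FPKM at the milky stage. Both sets were chosen by their values at these 2 stages, so which stage is the lower one follows from the choice. The 672 falling rows summed to 15368 FPKM at maturity and 45101 at the milky stage, or 2.26% and 6.56% of the FPKM of all entered rows. The 1040 rising rows summed to 38187 FPKM at maturity and 11119 at the milky stage, or 5.61% and 1.62%. Fewer rows fell than rose, yet the falling rows lost 29733 FPKM and the rising rows gained 27068. That order rests on 1 row, on chromosome 1 from 1169606, which lost 5398 FPKM with a difference just past the threshold, since without it the loss was 24335 FPKM. Leaving out rows listed at 0 in a stage gave a loss of 27496 FPKM and a gain of 26763 FPKM. Losses were also held by fewer rows, since the 10 largest made up 48.2% of the summed loss and the 10 largest gains made up 32.8% of the summed gain. The 10 largest losses include the row from 1169606, and their share without it was not computed.

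Transcript was spread over more rows at maturity. The share of the summed FPKM taken by the 100 highest rows was 20.5% at maturity and 23.5% at the milky stage, and 50% of the sum was reached with 934 rows at maturity and 806 at the milky stage. Of the 100 highest rows, 74 were the same in both stages. Of the 26 that were among the 100 highest at maturity only, 8 rose by the rule of size, and of the 26 at the milky stage only, 8 fell.

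At the top of the table the most abundant rows were lower at maturity. The row with the highest FPKM at maturity, on chromosome 1 (11339408 to 11340551), had 8557 FPKM there and 11621 at the milky stage, a log2 difference of −0.44. A row on chromosome 3 (70717672 to 70722503) that merges 2 gene IDs had 6558 FPKM at maturity and 11705 at the milky stage (−0.84). A row on chromosome 1 (1169606 to 1171177) had 5337 FPKM at maturity and 10735 at the milky stage, a log2 difference of −1.01 that puts it just past the threshold. Their booting values were 11251, 6827 and 5126 FPKM, so at maturity the rows that start at 70717672 and 1169606 stood close to their booting values. Together with a row on chromosome 5 (71599141 to 71600181, 5488 FPKM at maturity and 6213 at the milky stage), these were the 4 highest rows in both stages.

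Some abundant rows outside that top group fell far on the log2(FPKM + 1) scale. One row on chromosome 1 (74445944 to 74451079) had 669 FPKM at booting, 1411 FPKM at the milky stage and 36.6 FPKM at maturity, a log2 difference of −5.23 over the last step. A row of 160 bp on chromosome 4 (66881273 to 66881432) had 238, 1073 and 82.1 FPKM in the same order of stages (−3.69). A second row on chromosome 4 (57051382 to 57055340) declined throughout, with 919 FPKM at booting, 592 FPKM at the milky stage and 47.6 FPKM at maturity (−3.61). With Sobic.001G519700, these were the 4 largest falls among rows above 0 in both stages with a mean of 100 FPKM or more.

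The largest gain in FPKM was at a locus on chromosome 3 (7023231 to 7058676), where a pair of rows that each merge 2 gene IDs had 3077 and 1388 FPKM at maturity, against 341 and 16.2 FPKM at the milky stage. Further gains came from rows with a milky value below the booting one. On chromosome 4 a row (63023012 to 63027206) had 931 FPKM at booting, 402 FPKM at the milky stage and 1157 FPKM at maturity, a log2 difference of 1.52. One on chromosome 6 (865520 to 871154) had 263, 180 and 982 FPKM at the same stages (2.45), and one on chromosome 1 (70571280 to 70572094) had 818, 594 and 1567 FPKM (1.40). By contrast, a row on chromosome 1 (71623554 to 71624809) increased at each step, with 5.996 FPKM at booting, 32.5 FPKM at the milky stage and 403 FPKM at maturity (3.59).

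On the deposited scale, weakly expressed rows among those entered changed most often and mostly upward. Among 2489 rows with a mean of the 2 stages under 2 FPKM, 8.56% rose and 4.78% fell, and among 2942 rows at 2 to 5 FPKM the shares were 8.94% and 4.59%. A row with a mean under 1 FPKM entered only if its stages differed, which raises the shares under 2 FPKM. The entry rule leaves out no row at 2 to 5 FPKM. The part of counting error at low levels was not tested. At 5 to 20 FPKM (6193 rows) 5.54% rose and 3.79% fell, and at 20 to 100 FPKM (5260 rows) 3.54% rose and 2.85% fell. Of 1180 rows at 100 to 1000 FPKM, 33 rose and 30 fell, and in the 42 rows of 1000 FPKM or more there were 2 rises and 3 falls. The median difference declined from 0.09 under 2 FPKM to 0.04 at 100 to 1000 FPKM, and was −0.24 over the 42 highest rows. After quantile normalization the balance under 2 FPKM turned, with 44 fewer rises than falls. The 5.74% and 3.71% over all rows thus average over levels at which the shares differ by more than 2 times for rises.

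**Figure D3:**
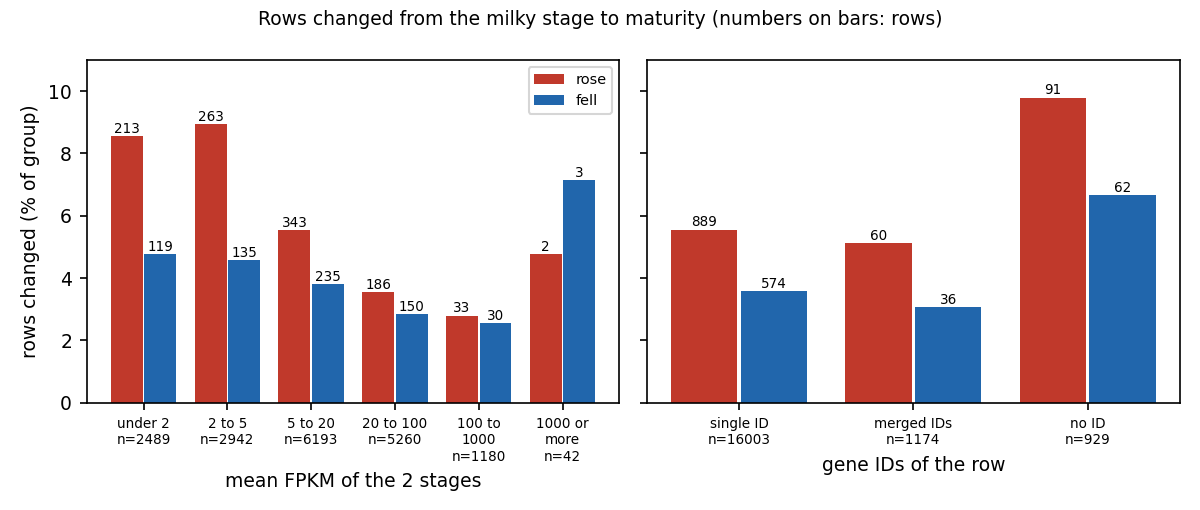
Bars give the share of rows that rose (red) and fell (blue) from the milky stage to maturity, by mean FPKM of the 2 stages (left) and by the gene IDs of the row (right), with the number of rows on each bar and the group size under it. The share that rose was 8.56% under 2 FPKM and 2.80% at 100 to 1000 FPKM, and rows with no ID changed more often than rows with 1 ID.

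Rows with no gene ID changed more often than single-gene rows, and this was seen at each level of expression compared. Of 929 rows with no ID, 9.80% rose and 6.67% fell, and of 16003 single-gene rows, 5.56% rose and 3.59% fell. Of the 929, 682 overlapped no row with an ID and 118 of these changed (17.3%), while 246 had the same locus as a row with an ID and 35 of these changed (14.2%). At a mean of 20 FPKM or more, 16 of 96 rows with no ID (16.7%) changed, against 353 of 5838 single-gene rows (6.05%). At 5 to 20 FPKM the shares were 16.1% of 261 and 9.12% of 5524, and under 5 FPKM 16.6% of 572 and 13.1% of 4641. Rows with no ID also covered shorter loci, with a median of 2956 bp against 4345 bp for single-gene rows. Single-gene loci of up to 3328 bp changed in 17.0% of rows under 5 FPKM, 17.3% at 5 to 20 and 10.8% at 20 or more. The part of length in the share of rows with no ID was not tested. Above 0 in both stages, 66 rows with no ID rose and 58 fell, against 91 and 62 with all rows. For single-gene rows these counts were 862 and 565, against 889 and 574. Rows that merge several IDs were closer to single-gene rows, with 5.11% rising and 3.07% falling of 1174.

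Examples of rows with no ID went both ways. A row on chromosome 8 (6245938 to 6326171) had 0.0121 FPKM at booting, 0.101 FPKM at the milky stage and 23.8 FPKM at maturity, a log2 difference of 4.49. Another on chromosome 4 (2596878 to 2602723) had 6.07 FPKM at booting, 69.7 FPKM at the milky stage and 0.608 FPKM at maturity (−5.46). Another row with no ID, at the same locus as the abundant single-gene row on chromosome 1 from 1169606, was listed at 0 at booting, reached 103 FPKM at the milky stage and stood at 1.29 FPKM at maturity (−5.51). Its abundant partner fell by 1.01 only, so the rows of 1 locus moved the same way by unequal amounts.

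Short loci changed more often than long ones at each level. Single-gene rows were divided by locus length into 3 sets of equal size, short (up to 3328 bp), middle (3329 to 5691 bp) and long (5692 bp or more). Of the short loci 14.96% changed, of the middle ones 6.82% and of the long ones 5.64%. At a mean of 20 FPKM or more the shares were 10.8%, 3.79% and 4.03% in the same order, and at 5 to 20 FPKM they were 17.3%, 7.01% and 4.87%. Of the short loci 9.32% rose and 5.64% fell, against 3.64% and 2.01% of the long ones. Locus length is the span on the chromosome and not the length of the transcript. By the definition of FPKM, a shorter transcript rests on fewer fragments at the same value. The part of counting error in these shares was not tested.

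Seen from booting, rows that fell at maturity were more often on their way back than rows that rose. Of the 672 falls, 237 (35.3%) had risen from booting to the milky stage, and of the 1040 rises, 198 (19.0%) had fallen. Over all 18106 rows, 4.94% rose and 5.13% fell from booting to the milky stage, and among the 16394 rows that did not change in the last step 3.56% rose and 4.24% fell. The 2 steps share the milky value, so a high or low milky value alone produces such reversals, and no test was made of them. Of the 237 reversals that fell at maturity, 181 ended within 1 of their booting value on the log2(FPKM + 1) scale, 34 ended below it by 1 or more and 22 remained above it by 1 or more. Of the 198 that rose at maturity, 152 ended within 1 of booting, 12 ended above it by 1 or more and 34 remained below it by 1 or more. About the same share of each, 76.4% and 76.8%, thus came back to within 1 of the booting value.

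The booting values of all changed rows were also set beside the 2 later stages. These rows were chosen by their milky and maturity values, so where booting lies is partly set by the choice. The same shares over all entered rows were not computed, and no test was made. The booting value was nearer to maturity than to the milky stage for 45.1% of falls and 25.6% of rises. It lay outside the range of the 2 later stages on the side of maturity for 108 falls (16.1%) and 119 rises (11.4%). On the side of the milky stage, booting was above the milky value for 161 falls (24.0%) and below it for 408 rises (39.2%). At maturity, 63.75% of the rising rows stood above their booting value by 1 or more, and 43.5% of the falling rows stood below theirs.

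Changed rows were found on all 10 chromosomes, with more spread between chromosomes for rises than for falls. The share that fell ranged from 2.88% on chromosome 10 to 4.24% on chromosome 9, around 3.71% over all rows. The share that rose ranged from 4.13% on chromosome 7 to 9.68% on chromosome 8, where 96 of 992 rows rose and 40 fell, and chromosome 5 came next at 7.58%. Chromosomes 8 and 5 also had low levels, with medians of 8.61 and 8.46 FPKM for the mean of the 2 stages, against 11.1 to 13.6 FPKM on the others. Where the mean reached 5 FPKM, 38 of 624 rows on chromosome 8 rose (6.09%) and 36 of 579 on chromosome 5 (6.22%), against 4.45% of 12675 over the whole table. The excess on chromosome 8 was thus smaller once weakly expressed rows were left out.

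**Figure D4:**
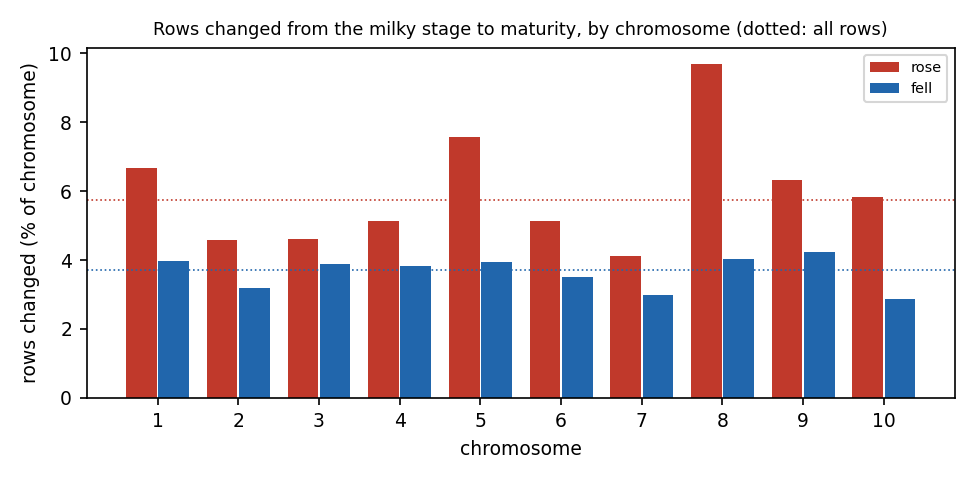
Bars give the share of entered rows on each of the 10 chromosomes that rose (red) and fell (blue) from the milky stage to maturity, and dotted lines give the shares over all 18106 rows, 5.74% and 3.71%. Rises range from 4.13% on chromosome 7 to 9.68% on chromosome 8, and falls from 2.88% to 4.24%.

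The shares differed little with distance from a chromosome end and more between single windows. Within 5 Mb of a chromosome end, taken as the first base or the last position in the table, 5.53% of 6189 rows rose and 3.47% fell, and at 20 Mb or more from an end 6.44% of 1645 rows rose and 3.59% fell. In windows of 5 Mb that held at least 50 rows, of which there were 84, the share that rose was highest on chromosome 6 from 0 to 5 Mb (18 of 120 rows, 15.0%) and on chromosome 8 from 5 to 10 Mb (17 of 124, 13.7%). It was lowest on chromosome 9 from 40 to 45 Mb (1 of 60, 1.67%) and on chromosome 5 from 60 to 65 Mb (2 of 103, 1.94%), and windows of so few rows carry wide counting error. The 32 rows on scaffolds outside the 10 chromosomes had 3 rises and 8 falls.

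Some neighbouring loci changed together, but most changed loci had no adjacent locus that changed the same way. With 1 row kept per locus, 761 rises and 522 falls stood alone, and 79 runs of rises and 38 runs of falls held 2 adjacent entered loci. There were 6 runs of 4 that all rose and 1 run of 4 that all fell, and no run was longer. The 4 loci on chromosome 1 from 15934073 to 16396864 were the clearest, with 4.89 to 8.88 FPKM at maturity and 0 to 0.0434 FPKM at the milky stage. Their median at booting was 0.00314 FPKM. A run of 4 on chromosome 10 (9815039 to 9873508) had 2.27 to 38.2 FPKM at maturity and 0 to 12.3 FPKM at the milky stage. The run that fell, on chromosome 8 (17994526 to 18264165), had medians of 7.35 FPKM (booting), 20.6 FPKM (milky stage) and 7.39 FPKM (maturity).

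Runs of 3 numbered 11 that rose and 6 that fell. On chromosome 7 (315338 to 345271), 3 loci rose by 1.93 to 3.77 on the log2(FPKM + 1) scale, with a median of 50.2 FPKM at maturity and 2.76 FPKM at the milky stage. On chromosome 8 (2727275 to 2780069), 3 loci had a median of 35.7 FPKM at maturity and 182 FPKM at the milky stage. On chromosome 2 (72580072 to 72589152), 3 loci within 9.08 kb had 0.0750 to 0.164 FPKM at maturity and 4.80 to 20.4 FPKM at the milky stage. Reads shared between similar neighbouring genes would also give such runs, and their part was not tested.

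Among rows that share 1 locus in the table, changes in opposite directions were found at 1 locus. There were 1032 loci with at least 2 entered rows, holding 2215 rows, of which 8.53% changed, against 9.46% over all rows. With 5.74% of all entered rows rising and 3.71% falling, few loci would hold both a rise and a fall even if their rows moved independently. No test was made. At 23 of these loci at least 2 rows changed in the same direction, at 141 exactly 1 row changed, and at 1 locus rows changed in opposite directions. That locus lies on chromosome 9 (55999398 to 56008914), where 1 row had 59.8 FPKM at maturity and 21.5 FPKM at the milky stage (1.44) and another had 1.03 FPKM at maturity and 3.10 FPKM at the milky stage (−1.02). The sources used here do not say how fragments were divided among rows of 1 locus.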

How the data were processed

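Total RNA of the middle internode was sequenced at 3 stages. A modified Trizol extraction and a stranded library kit for total RNA were used, per the labels' protocols. The tools were HISAT2 2.0.5, Bowtie2 2.2.9, cutadapt 1.8.1 and Cuffdiff, per the submitters' processing notes. Neither the role of each tool nor the genome build nor how libraries were combined is given in the sources read here. The authors deposited FPKM values, 1 per stage, per the file headers.

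Rows with at least 1 FPKM at maturity or the milky stage entered. The log2(FPKM + 1) difference, maturity minus milky stage, was computed per row, and a size of 1 was the threshold for rose or fell. The members, threshold and lists were chosen with earlier results of these data known. The rule for named genes needed gene descriptions, which the IDs do not have. Of single-ID rows above 0 in both stages, the 12 largest rises and falls are summarised and 2 of each are named by ID. Other loci are given by position and were chosen after their values were seen, for level, log2 difference, gain or loss of FPKM, or run length. For lack of descriptions, 0 of 51 gene lists found a row, and no promoter or protein sequence was used. The code was tested on simulated data. It ran under Python 3.11.15 with pandas 2.3.3, numpy 2.4.6, matplotlib 3.10.9 and scipy 1.17.1.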

Additional observations from a re-analysis of the deposited data

How the results depend on the processing

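The limits are those of 1 value per stage: no difference has a replicate check, and depth is unknown. The 1712 changed rows (1040 rose, 672 fell) stayed within 1.5 times after rescaling by the median of ratios, after quantile normalization, with rows of 1 gene ID only, without the filter (which could not change them), and under 3 settings added after seeing the data: rows above 0 in both stages, 1 row per locus and loci of at least 500 bp. The count was 2618 with a pseudocount of 0.1 (1567 rose, 1051 fell), 668 with a pseudocount of 5 (387 rose, 281 fell), 982 where the mean reached 5 FPKM (564 rose, 418 fell) and 341 where the difference reached 2 (215 rose, 126 fell). These follow from the weight of low values, the rows that enter and the size asked for. Rises exceeded falls under all of them.

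The balance of rises minus falls turned in some subsets. For rows with no ID it was −2 where the mean reached 5 FPKM and −4 after quantile normalization, against 29. Under 2 FPKM it was −44 after quantile normalization, against 94. At 100 to 1000 FPKM it was −10 after rescaling, −2 after quantile normalization and −2 where the difference reached 2, against 3. At 1000 FPKM or more it was 1 after quantile normalization and 1 where the difference reached 2, against −1. The cause was not tested. The log2 differences of the 4 genes named by ID moved with the pseudocount (0.1, then 5): to 6.65 and 3.72 from 5.46 for Sobic.004G263100, to 5.81 and 4.35 from 5.40 for Sobic.002G109500, to −7.64 and −5.19 from −6.77 for Sobic.001G519700, and to −7.68 and −3.90 from −5.89 for Sobic.002G072200. The order thus turned between the rises at 5 and between the falls at 0.1. No paired analysis was possible because the table has 1 value per stage, and for the same reason no replicate could be left out; gene list medians had no members.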
